A study of Mus musculus with 6 samples.

Results

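Mouse oocytes that were injected with water and collected at the stage of the germinal vesicle (GV, the large oocyte nucleus) were described as a baseline transcriptome. They were chosen by their label alone and made up 3 of the 6 libraries of the series. The 92 rows of ERCC spike-in RNAs (synthetic RNAs added to a sample) were left out, so 25239 of 25331 rows remained. Per the labels, cumulus-oocyte complexes came from CD-1 females, an outbred stock, aged 4 to 6 weeks. The complexes were microinjected with water and cultured in alpha-MEM with 10% fetal bovine serum, 200 mIU/mL follicle-stimulating hormone and pyruvate, and oocytes were collected at the GV stage. Injection, culture and hormone were shared by all 3 libraries, so an uninjected or uncultured oocyte is not part of this baseline. Polyadenylated RNA was measured with Smart-seq3, a single-cell method that primes cDNA on the poly(A) tail and amplifies it by PCR, and sequenced as read pairs of 150 bp. The other 3 libraries, from oocytes injected with phthalate metabolites, were not compared. The titles call each library a GV oocyte. The labels name no animal, and their protocol can be read as 1 oocyte per group, so the spread between libraries may be technical.

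A GV oocyte is arrested in meiotic prophase and has finished its growth. Its transcription is largely silent or about to become so, and it carries a store of maternal RNA that is translated, held or degraded through maturation and early cleavage. Products known from this stage include the egg coat, growth factors sent to the follicle cells, the subcortical maternal complex (a protein assembly under the oocyte membrane) and factors that protect the maternal genome's methylation.

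The 4 defining markers of the cell type were all abundant. Gdf9, a growth factor secreted to the follicle cells, had 12230, 7537 and 8725 CPM in libraries 1, 2 and 3 (mean 9498 ± 2440, SD, n = 3). CPM is a gene's count per 1000000 gene counts of its library. Library 1 was the high one for Gdf9, and libraries 2 and 3 lay nearer to each other. Dppa3, a protector of maternal DNA methylation, had 3547, 3410 and 3975 CPM (mean 3644 ± 295, SD, n = 3). It matches Dppa3-ps over 451 bases at 98.2% identity, so its reads may be split. Zp3, an egg coat protein and sperm receptor, had 3195, 3336 and 3041 CPM (mean 3191 ± 148, SD, n = 3). Bmp15, the partner of Gdf9, had 1176, 1283 and 1399 CPM (mean 1286 ± 111, SD, n = 3). The last 3 genes were even across the libraries, with a coefficient of variation (CV, SD over mean) of 8.09%, 4.63% and 8.66% against 25.7% for Gdf9. Among the 11611 genes with a count in any library they ranked 5 (Gdf9), 14 (Dppa3), 20 (Zp3) and 81 (Bmp15) by mean CPM. Most markers of other ovarian cell types had no count, with exceptions and the share over all gene rows given with those lists.

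In GRCm38, the assembly also called mm10, which the submitters' processing notes name, GENCODE places Gdf9 on chromosome 11 from 53431023 to 53437904 (plus strand, 2 exons in its longest transcript). Zp3 lies on chromosome 5 from 135980099 to 135988624 (plus strand, 8 exons), and Dppa3 on chromosome 6 from 122626410 to 122630272 (plus strand, 4 exons). Bmp15 lies on chromosome X from 6314107 to 6320721 (minus strand, 2 exons). The RefSeq span of Gdf9 overlaps that of Uqcrq, and the counting of overlapping genes and the use of strand are not given in the sources used here.

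The promoters of 4 abundant oocyte genes are shown because promoters of zona genes are known to act through E-boxes, the short elements bound by helix-loop-helix factors such as FIGLA. Each sequence is the 250 bases before the RefSeq transcription start in GRCm38.p6, written 5′ to 3′ on the gene's strand, with every E-box (CANNTG) in capitals. The windows are chr5:135979855-135980104 (plus strand) for Zp3, chrX:6320725-6320974 (minus) for Bmp15, chr6:115944681-115944930 (plus) for H1f8 and chr4:140742644-140742893 (minus) for Padi6.
Zp3: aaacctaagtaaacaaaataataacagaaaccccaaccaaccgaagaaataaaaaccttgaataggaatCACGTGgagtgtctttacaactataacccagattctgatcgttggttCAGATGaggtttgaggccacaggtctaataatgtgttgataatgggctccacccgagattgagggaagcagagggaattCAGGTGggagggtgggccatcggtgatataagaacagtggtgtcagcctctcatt
Bmp15: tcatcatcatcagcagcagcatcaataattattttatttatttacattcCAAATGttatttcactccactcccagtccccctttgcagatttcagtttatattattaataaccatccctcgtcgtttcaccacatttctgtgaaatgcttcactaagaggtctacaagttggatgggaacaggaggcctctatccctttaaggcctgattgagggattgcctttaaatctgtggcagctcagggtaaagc
H1f8: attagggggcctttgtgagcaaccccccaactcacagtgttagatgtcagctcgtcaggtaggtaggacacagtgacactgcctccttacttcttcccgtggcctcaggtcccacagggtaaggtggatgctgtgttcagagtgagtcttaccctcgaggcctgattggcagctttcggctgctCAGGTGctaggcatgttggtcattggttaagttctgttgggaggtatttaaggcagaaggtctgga
Padi6: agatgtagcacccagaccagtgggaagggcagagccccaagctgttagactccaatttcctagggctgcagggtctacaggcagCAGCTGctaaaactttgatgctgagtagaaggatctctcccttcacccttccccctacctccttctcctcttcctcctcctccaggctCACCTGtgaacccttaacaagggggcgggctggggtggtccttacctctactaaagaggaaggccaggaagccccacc
The Zp3 window held 3 E-boxes, among them CACGTG, Padi6 held 2, and Bmp15 and H1f8 held 1 each. An element of this kind is common. CANNTG was present in 66.2% of all 32851 promoter windows of 250 bases in the RefSeq table and in 59.2% of those of genes with a count. It was present in 73.4% of the 94 windows of the 100 most abundant genes (75 of which had an entry) and in 65.3% of the 196 windows of the top 200. CACGTG was present in 6.02% of all windows, in 8.13% of those of genes with a count and in 6.38% of those of the top 100. TAATTG, an element bound by the oocyte homeobox factor NOBOX, was searched on both strands and was present in 7.17%, 4.8% and 6.38% of the same windows, and in none of the 4 above. Other forms of this element were not searched, so their presence in the 4 windows is not described. A match describes letters in the window and not a bound site. The RefSeq promoter table had no entry for Gdf9 and Dppa3.

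Total gene counts were 269491, 300917 and 283777 in libraries 1, 2 and 3, so 1 count was worth 3.32 to 3.71 CPM. ERCC counts were 753, 338 and 313. Even numbers made up 69.0% to 71.0% of counts from 1 to 20, as when both mates of a pair are counted, so counting error was computed on read pairs of 2 counts each. No pair of libraries agreed within counting noise (chi-square per degree of freedom of 1.18 to 1.49 on read pairs), so none was a library deposited again. This does not show that they came from separate oocytes.

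Each library held 9450 to 9615 genes with a count. Of the 11611 genes with a count in any library, 7533 (64.9%) were seen in all 3, 1851 (15.9%) in 2 and 2227 (19.2%) in 1. Genes seen in all 3 libraries carried 97.9% of all counts, and those seen in 1 carried 0.613%. The genes of a single library were of low abundance, with a median of 2.35 CPM and a maximum of 17.3 CPM for Nadsyn1. These are means over all 3 libraries, so the level in the library that held the gene was higher. For the median gene, detection in 1 library was at the scale of a few reads, and Nadsyn1 was above that scale.

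Counts were spread over a few very abundant genes and a long tail. The top gene alone took 2.23% of mean CPM, the top 8 took 9.56%, the top 100 took 28.2% and the top 1000 took 62.3%. It needed 501 genes to reach 50% of the counts and 4048 to reach 90%. Library 1 was the flattest, with 26.5% of its counts in the top 100 genes against 29.2% and 29.0% in libraries 2 and 3. The median over detected genes was 22.1 CPM, and 114 genes reached 1000 CPM.

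**Figure D1:**
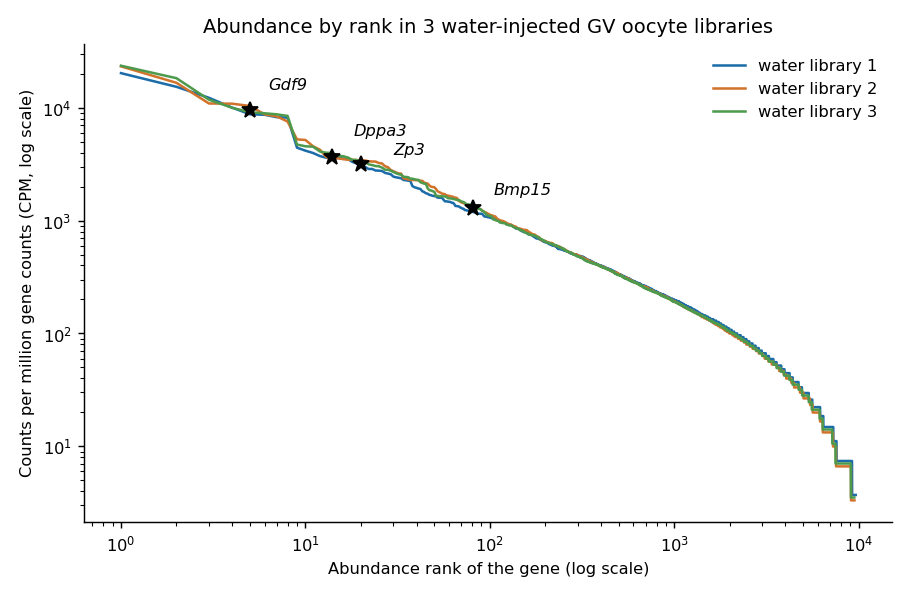
Abundance in CPM (log scale) against abundance rank (log scale) for the genes with a count in each of the 3 water libraries, drawn as 1 line per library. Stars mark the mean CPM and rank of Gdf9, Dppa3, Zp3 and Bmp15, and the lines of the libraries lie close together down to the steps of single counts.

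Protein-coding genes made up 11016 of the detected genes and 96.2% to 96.5% of the counts. Long noncoding RNAs made up 461 genes with 0.998% to 1.10% of the counts, and transcribed pseudogenes 101 genes with 0.266% to 0.330%. Most of the remainder was Rn45s, the ribosomal RNA precursor, with 20220, 23230 and 23530 CPM. It ranked 1 by counts, and library 1 was the low one. Priming on the poly(A) tail selects against this RNA, so its share is not its amount in the cell.

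Zbed3, a member of the subcortical maternal complex, was the most counted messenger RNA, with 15300, 16600 and 18240 CPM in libraries 1, 2 and 3. Elobl, an elongin B-like gene, followed with 10020, 10350 and 11770 CPM. In both, library 3 was highest and library 1 lowest. The RefSeq span of Zbed3 overlaps those of Snora47 (33, 73 and 54 counts) and LOC115485922, so some reads may be shared. Hsp90aa1, an inducible heat shock protein 90, had 8238, 10850 and 9980 CPM, and Ubb, a polyubiquitin gene, had 8653, 10890 and 8919. Ldhb, the heart-type subunit of lactate dehydrogenase, had 8739, 8733 and 9109 CPM. H1f8, the oocyte linker histone, had 8160, 8361 and 8457 CPM. These last pair were far more even than their neighbours in rank, with CVs of 2.43% and 1.82%, against 13.7% for Hsp90aa1 and 12.9% for Ubb.

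After these 8 there was a gap. The gene at rank 8 had a mean of 8326 CPM and the gene at rank 9, E330021D16Rik, had 4650. Bcl2l10, an antiapoptotic BCL2 family member, had 3967, 5171 and 4715 CPM. Padi6, a member of the peptidylarginine deiminase family needed for cytoplasmic lattices, had 4423, 4553 and 4511 CPM. The rest of the top 20 lay between 3191 and 3940 CPM on average. They were E330034G19Rik, the maintenance DNA methyltransferase Dnmt1, Dppa3, the oligoadenylate synthetase-like gene Oas1e, bisphosphoglycerate mutase Bpgm, Ooep of the subcortical maternal complex, the chromatin reader Spin1, the AKT cofactor Tcl1 and Zp3. Within this group the ranges of neighbours overlapped, so their order by counts was not resolved. Of the 19 genes of the top 20 with a GENCODE transcript 4 (Dppa3, Hsp90aa1, Ldhb and Ubb) match the transcript of another gene over at least 150 bases at 98% identity or more, and so do 66 of the 199 of the top 200, overlapping genes included. Their reads may be split or left out, depending on a counting rule that is not given in the sources used here.

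**Figure D2:**
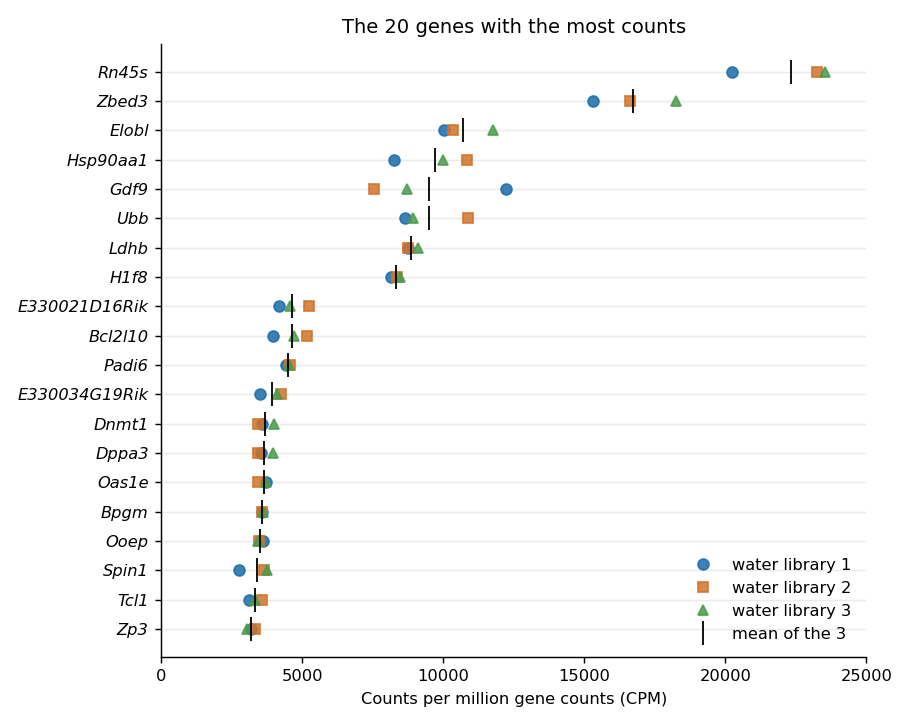
CPM (linear axis from 0) of the 20 genes with the highest mean CPM, with 1 symbol for each of the 3 water libraries and a bar at their mean. Gdf9 is the widest of the 20, from 7537 to 12230 CPM, while the symbols of H1f8, Padi6 and Bpgm nearly coincide.

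Counts grow with transcript length, so levels of different genes were compared per length, as CPM per base of the longest GENCODE transcript rescaled to a sum of 1000000 per library (written TPM). Lengths were found for 11531 of the detected genes (99.3%), not including Rn45s. Of the 20 genes with the most counts, 13 were also among the 20 highest per length. Elobl was the highest at 26660, 27960 and 31710 TPM in libraries 1, 2 and 3, and Zbed3 followed at 17160, 18880 and 20690. These ranges did not overlap. H1f8 (14930 to 15660 TPM), Ldhb (14610 to 15420) and Ubb (12590 to 16070) overlapped with each other. Gdf9 (9299 to 14870) overlapped with Ldhb and Ubb through library 1, and with Dppa3 (9055 to 10530).

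Short transcripts entered the list when length was counted. Rpl37rt, a retrogene of ribosomal protein L37, had a mean of 5590 TPM and rank 13, although it matches Rpl37 over 333 bases at 99.7% identity and its reads may belong to either, and Rpl41, the smallest ribosomal protein, had 5240 TPM and rank 16. Npm2, the oocyte nucleoplasmin, Omt2a, Omt2b, Oosp1 and Uchl1 also entered, while Dnmt1, with a long transcript, fell to rank 106. The choice of transcript matters. With the median transcript length in place of the longest, 16 of the 20 genes stayed in the list but the leaders changed. Gdf9 moved from 11640 to 23290 TPM and Hsp90aa1 from 6502 to 17050. Elobl fell from 28780 to 16030 and Zbed3 from 18910 to 9298, below Ldhb at 11310. The order at the top therefore holds for the longest transcript and not for the median one.

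By role, the egg coat and oocyte-secreted factors were an abundant list. All 12 members were present in every library with a median of 1520 CPM, against 22.1 over all detected genes, and per length a median of 2020 TPM against 14.4. Together they took 2.38% to 2.68% of the counts. Among egg coat genes Zp3 had the highest level per length (5310 TPM), followed by Zp2 (1620) and Zp1 (1090). With the median transcript length Zp3 was still the highest, and Zp2 (833.5) and Zp1 (837.3) were level. Oosp1, an oocyte-secreted protein, had 1636, 2253 and 2625 CPM. It was highest in library 3 and lowest in library 1, where Gdf9 was highest. Omt2a and Omt2b lie side by side on chromosome 9 and had 2560 ± 286 and 2445 ± 167 CPM (SD, n = 3). Fgf8 and Bmp6, growth factors that also act on follicle cells, had lower levels per length, at 369 and 52.4 TPM.

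The subcortical maternal complex and the oocyte NLRP genes were also present in full, 15 of 15 in every library, with 3.30% to 3.57% of the counts. Zbed3 and Padi6 led, followed by Ooep, with 3599, 3459 and 3443 CPM. Tle6 had 2461 CPM on average, Khdc3 1300 and Nlrp5, the scaffold of the complex known as MATER, 782. Per length, Zbed3 (18900 TPM) stood above Ooep (3600), Tle6 (2680), Khdc3 (1700) and Nlrp5 (490), so the messages of a common complex were not at a common level. Padi6 of the same list had 4239 TPM. With the median transcript length Zbed3 was at 9298 TPM, Padi6 at 7297, Tle6 at 4145 and Ooep at 1724, so Zbed3 led by less and Tle6 passed Ooep. Among NLRP paralogs Nlrp14 was the most counted at 2022, 2805 and 2424 CPM, and Nlrp4e the least at 128 on average. Nlrp4e has 5 near-identical copies (at least 150 bases at 98% identity or more in GENCODE transcripts), and its reads may be split.

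Of 15 oocyte transcription factors 11 were present in every library, with a median of 159 CPM. Obox2 (1240 CPM), Obox5 (1170) and Obox1 (1140) of the homeobox cluster led. Obox1 and Obox2 match each other over 1464 bases at 98.8% identity, so their separate values are uncertain. Nobox had 479, 389 and 529 CPM and Lhx8 145, 140 and 194, both regulators of follicle formation. Figla had 66.8, 53.2 and 24.7 CPM, and library 3 was the low one at 7 counts. Sohlh1, Obox3 and Obox6 were at 0 in all 3 libraries, where 0 of 854185 summed counts allows up to 3.51 CPM if a count is a read and 7.02 CPM if 2 counts are a read pair (3 reads or 3 pairs, counting error only). Obox3 has 5 near-identical copies, so that limit does not cover it. For Sohlh1 and Obox6 the limit assumes that their reads were counted. That is uncertain in view of other zeros given below, such as that of Rec8.

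The list of prophase arrest and meiotic resumption was present for 25 of 28 genes in every library, with a median of 86.8 CPM. Btg4, which triggers the clearance of maternal RNA, led at 2416, 3459 and 3327 CPM and was low in library 1. Ccnb1, the cyclin of maturation-promoting factor, had 980, 911 and 1270 CPM and Mos, the kinase upstream of MAP kinase, had 1050, 997 and 860. Cdk1, the partner of cyclin B, had 75.8 CPM. Per length Cdk1 had 38.1 TPM, far below the 931 of Ccnb1 although their proteins act as a pair. Both values rest on the longest transcript, and Ccnb1 has 2 near-identical copies, so its reads may be split. The arrest receptor Gpr3 had 57.1 CPM and the phosphodiesterase Pde3a 91.1. Npr2, a receptor of the follicle cells, was listed at 0. Its RefSeq span overlaps that of Spag8, so this 0 is uncertain.

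Of 18 genes of meiotic chromosome structure and the spindle checkpoint 14 were present in every library, with a median of 38.8 CPM. Bub1b, a checkpoint kinase of the kinetochore, had 1060, 1180 and 997 CPM, the cohesin subunit Smc3 had 365 on average, and Bub3 had 283. Per length Bub1b had 648 TPM, against 17.1 for the meiotic cohesin subunit Smc1b and 70.5 for the axis protein Sycp3. Rec8, Stag3 and Dmc1 were listed at 0 in every library, although Rec8 and Stag3 encode meiotic cohesin subunits whose proteins hold oocyte chromosomes together. Gapdh, which every cell uses, was listed at 0 as well. Gapdh has 73 near-identical copies in GENCODE transcripts by the rule above, and Rec8, Stag3 and Dmc1 have none. RefSeq places no gene over Rec8 and 2 genes over Stag3. A 0 in this table is therefore not read as absence of the message.

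Maternal RNA regulators were present for 22 of 24 genes in every library, with a median of 262 CPM. After Btg4 came Eif4e1b, the oocyte form of the cap-binding factor (1300 CPM), Zar1 (1200), which stores maternal RNA, and Lsm14b (1040). The RNA-binding proteins Cpeb1 and Dazl had 600 and 584 CPM. Ybx2, an RNA-binding protein known to be abundant in oocytes, had 118 TPM per length against 1340 for Eif4e1b, and the helicase Ddx6 had 3.79. Tut4, over which RefSeq places 6 genes, was listed at 0.

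Maternal chromatin factors were present for 18 of 19 measured genes in every library, with 2.44% to 2.61% of the counts. H1f8, Dnmt1 and Dppa3 led, followed by Zfp57, which guards imprints, at 2776, 2971 and 3436 CPM. The oxidase Tet3 had 1150, 1450 and 1390 CPM. Dnmt3a, the enzyme that sets methylation during growth, had 167 CPM, and the histone chaperone Hira had 0, 2 and 2 counts. Hira matches Gm28539 over 2416 bases at 100% identity, so its low value is uncertain. Of fertilization genes, Uchl1, a ubiquitin hydrolase, had 3310, 3030 and 2950 CPM, the zona protease Astl 457 and the sperm receptor Izumo1r 252. Cd9, needed for gamete fusion, had 115, 99.7 and 52.9 CPM, and Tpcn1, which overlaps Iqcd in RefSeq, was listed at 0.

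The oogenesin and Fbxw genes are 2 multigene families known from oocytes. In the oogenesin list Oog3 had 1400 CPM and Pramef12 669. C86187, which the list also held at 2240 CPM, is a long noncoding RNA on chromosome 7 in RefSeq and not a gene of this protein family. Without it the list had a median of 456 CPM, against 469 with it. C87977, a neighbour of Oog3 on chromosome 4 that the list did not hold, had 1818 CPM. Oog1 and E330014E10Rik were listed at 0. Both of the latter have near-identical copies, Oog1 matching Gm10436 over 2451 bases at 98.8% identity. The Fbxw cluster on chromosome 9 encodes F-box proteins found in oocytes. Of its genes 13 were listed, and all of these were present in every library, with 1.43%, 2.04% and 1.80% of the counts in libraries 1, 2 and 3. Fbxw27, which lies in the same cluster and was not in the list, had 612.3, 850.7 and 553.3 CPM, and with it the shares were 1.5%, 2.13% and 1.86%. Fbxw24 led with 2646, 3499 and 3101 CPM, followed by Fbxw28 (2290, 3330 and 3027) and Fbxw14 (1688, 2283 and 2185). Fbxw14 and Fbxw28 match over 1332 bases at 99.1% identity.

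Most Fbxw genes shared a pattern across libraries, singled out after their values were seen. Of the 12 listed genes that averaged 20 counts or more, 12 were highest in library 2 and 11 lowest in library 1. With Fbxw27, 13 of 13 were highest in library 2 and 11 of 13 lowest in library 1, the exceptions Fbxw21 and Fbxw27 being lowest in library 3. Over all 2838 genes at that depth, libraries 1, 2 and 3 were highest for 38.7%, 31.6% and 29.7% and lowest for 33.2%, 33.9% and 32.9%. Among the 200 most abundant genes libraries 1, 2 and 3 were highest for 25.5%, 45.5% and 29% and lowest for 50%, 22% and 28%, the same directions as in the Fbxw genes. With TMM or DESeq2 scaling 13 of 13, Fbxw27 included, were highest in library 2 and 12 of 13 lowest in library 1, with Fbxw27 still lowest in library 3. Over the 2838 genes library 2 was then highest for 35.3% (TMM) and 37% (DESeq2) and library 1 lowest for 38.5% and 40.7%. These paralogs share sequence, and the part of shared reads in the pattern was not tested. Of cytosolic ribosomal protein genes 44 of 70 were highest in library 1 and 13 lowest there. With TMM and DESeq2 scaling 38 and 36 of the 70 were highest in library 1, as were 33% and 30.2% of the 2838 genes.

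Genes that lie close together were more frequent among the most abundant. Of 199 placed genes of the top 200, 38 (19.1%) had another member of the 200 within 100 kb. In the following 9 groups of 200 genes by rank the share ranged from 2.0% to 10.6%. The 38 genes formed 13 groups, of which the largest was the Fbxw group (10 genes, chromosome 9 from 109270790 to 109790670). The Oas1 group (Oas1e, Oas1c, Oas1d and Oas1h) lies on chromosome 5 from 120786226 to 120921652 and took 1.11%, 1.07% and 1.07% of the counts. Ooep, Omt2a, Omt2b and Eef1a1 lie together on chromosome 9 from 78311972 to 78489151. The top 200 also had shorter transcripts, with a median of 2171 bases against 3334 over detected genes.

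Most genes of general metabolism were present. Of 87 cytosolic ribosomal protein genes 78 were present in every library, with a median of 279 CPM and 2.91% to 3.26% of the counts. Rpl41 (1656 CPM), Rpl35 (1577) and Rpl5 (1270) led, and Rpl26, Rps27 and the muscle form Rpl3l were listed at 0. Of the 87 genes 67 have a near-identical copy, Rpl26 and Rps27 among them, so single values of this list are uncertain. Of 88 nuclear-encoded respiratory chain genes 79 were present in every library, at a median of 91.7 CPM and led by Cycs (648), Cox4i1 (633) and Atp5j2 (573). Cox7a1, Cox7b2, Cox8b and Ndufs5 were at 0, of which Ndufs5 has a near-identical copy. Of 39 proteasome genes 33 were present in every library, at a median of 162 CPM, led by Psma7 (923), Psmd4 (786) and Psma2 (498). The 5 at 0 were the immunoproteasome and tissue forms Psmb8, Psmb9, Psmb10, Psmb11 and Psma8. Psmd13, which is not one of these forms, had 2, 0 and 0 counts in libraries 1, 2 and 3.

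Commonly used reference genes spanned a wide range. Ubb led at 9486 CPM, followed by Eef1a1 (1480) and Hspa8 (1270). The cytoplasmic actin Actb had 66.8, 99.7 and 120 CPM and rank 2146, and B2m, a class I histocompatibility subunit, had 3.71, 63.1 and 21.1. Among the 200 most abundant genes the most even were Cpsf4l (2371, 2346 and 2350 CPM, CV 0.567%), A430033K04Rik (CV 0.644%), Bpgm (0.711%), G3bp2, a stress granule protein (1.46%), and Padi6 (1.47%). They were picked as the smallest of 200 CVs, whose median was 10.8%.

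Most markers of other cell types had no count. Rows with no count were also common in general, since 11611 of all 25239 gene rows had a count in any library. Of 22 cumulus and granulosa markers 18 had no count in any library, including Amh, Fshr, Foxl2, Inha and Gja1, and the list took 37, 23 and 13 counts. Nr5a2 held 32, 23 and 9 of these. The other counts came from Cyp19a1 (5 in library 1), Has2 and Kitl (2 each in library 3). Of 10 theca and stroma markers 9 had no count, and Dcn had 2, 0 and 2. Of 16 blood, immune and endothelial markers 12 had no count, among them Ptprc and the globins, while Pecam1 had 9, 25 and 11 and C1qb 6, 9 and 5. No list took more than 0.0137% of a library, the share of the cumulus and granulosa list in library 1. Nr5a2 (mean 75.6 CPM), Pecam1 (51.7) and C1qb (23.3) lay above the median of detected genes, 22.1 CPM. Since genes such as Gapdh are also listed at 0, the zeros of these lists are not read as absence, and the part of other cells in the libraries was not tested.

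Genes of later or other germ-line stages were detected in part. Pou5f1, a pluripotency factor that oocytes store, had 275, 259 and 229 CPM. Tcstv1 and Tcstv3, known from the 2-cell embryo, had 31.0 and 16.7 CPM on average, and 6 of the 14 measured genes of this list had no count. Of 10 spermatid genes 7 had no count, and Prm2, Ldhc and Akap4 had 34.5, 24.2 and 7.04 CPM. Over all 25239 gene rows 11611 had a count in any library, so rows with no count were common. These tallies are therefore not read as particular to the lists.

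**Figure D3:**
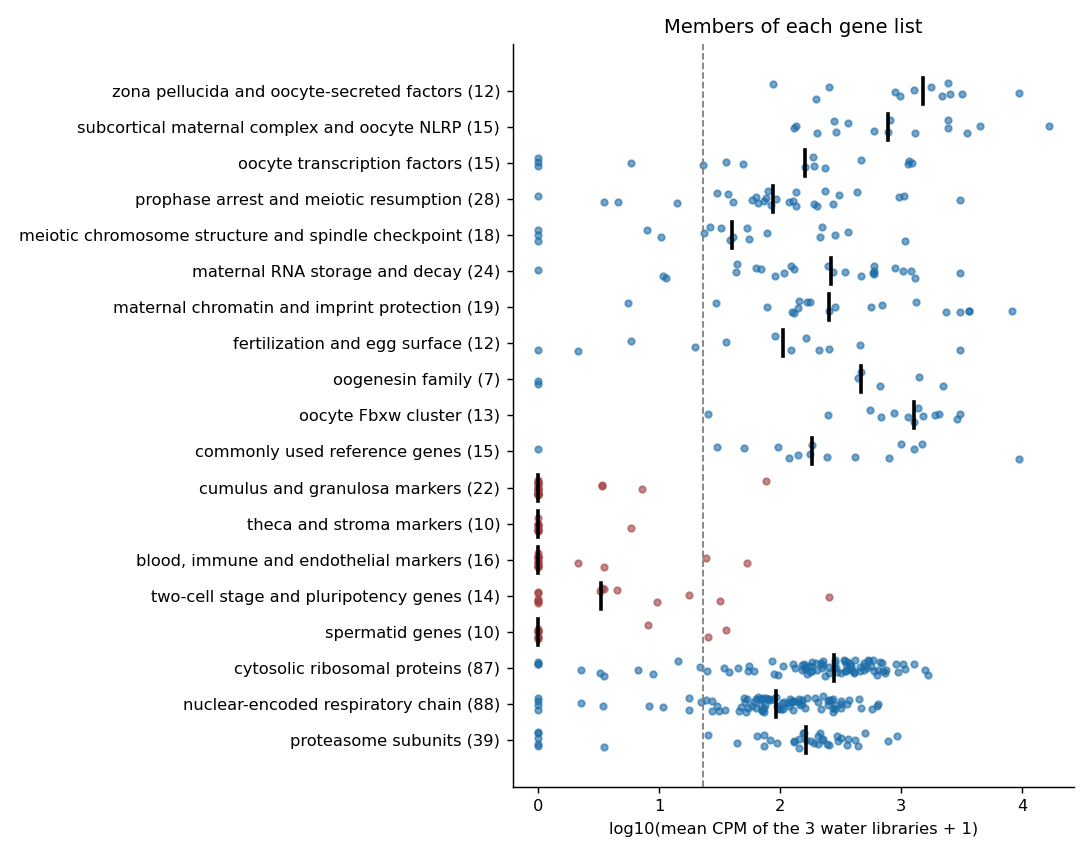
Each point is a gene at log10(mean CPM + 1) over the 3 water libraries, in rows of 1 gene list each with the number of measured members in brackets. Black bars are list medians, the dashed line is the median of all detected genes (22.1 CPM), and the lists of other cell types and stages (red) lie mostly at 0.

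Agreement between libraries was measured across genes, as a description with no p since genes are not independent replicates. Over the 2838 genes that averaged 20 counts or more, which held 83.3% of the counts, Spearman's rho of CPM was 0.818 for libraries 1 and 2, 0.825 for 1 and 3 and 0.837 for 2 and 3. Pearson's r of log2(CPM + 1) was 0.899 for libraries 1 and 2 and 0.913 for 2 and 3. The median gene differed by 1.26-fold between libraries 1 and 2 and by 1.22-fold between 2 and 3, and 93.6% to 94.6% of genes lay within 2-fold. Libraries 2 and 3 were the closest pair on each of these measures.

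**Figure D4:**
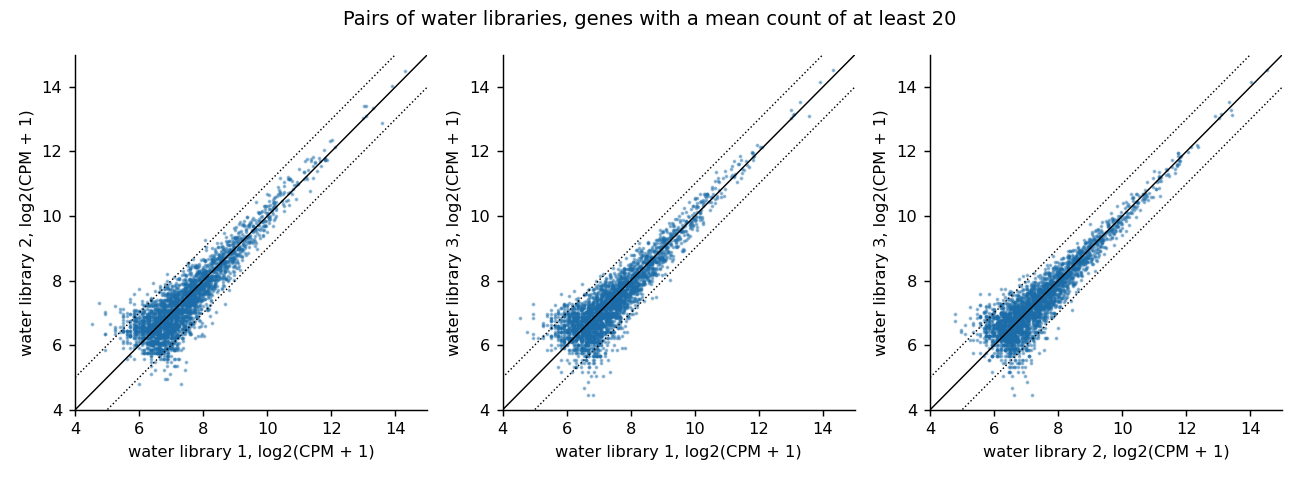
Log2(CPM + 1) of the 2838 genes that averaged at least 20 counts, in each pair of water libraries, 1 point per gene. The solid line marks equal values and the dotted lines a 2-fold difference, within which at least 93.6% of the genes of each pair lie.

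The spread narrowed with abundance and then stopped narrowing. Between the 3 libraries the median CV was 38.6% for 3576 genes whose mean count ran from 5 to under 20, 21.3% for 2365 genes from 20 to under 100 and 11.8% for 421 genes from 100 to under 500. For the 52 genes with a mean count of 500 or more it was 11.0%. Counting error on read pairs has an expected CV of 4.90% at that depth, and the extra CV estimated beyond it was 12.1%. The last 2 values are expected CVs, which lie above the median of a CV taken over 3 libraries, so they do not add up to the 11.0%. From 100 to under 500 the extra CV was 9.04%, and from 20 to under 100 it was 10.5%. The estimator was adopted after the data were seen, and over all 2838 genes it gave 10.3% where the form used at first gave 6.2%. With each count taken as an independent read the 3 values were 12.7%, 11.9% and 19.4%. The abundant genes thus gave nearly the same answer under either reading of a count, and the low ones did not.

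**Figure D5:**
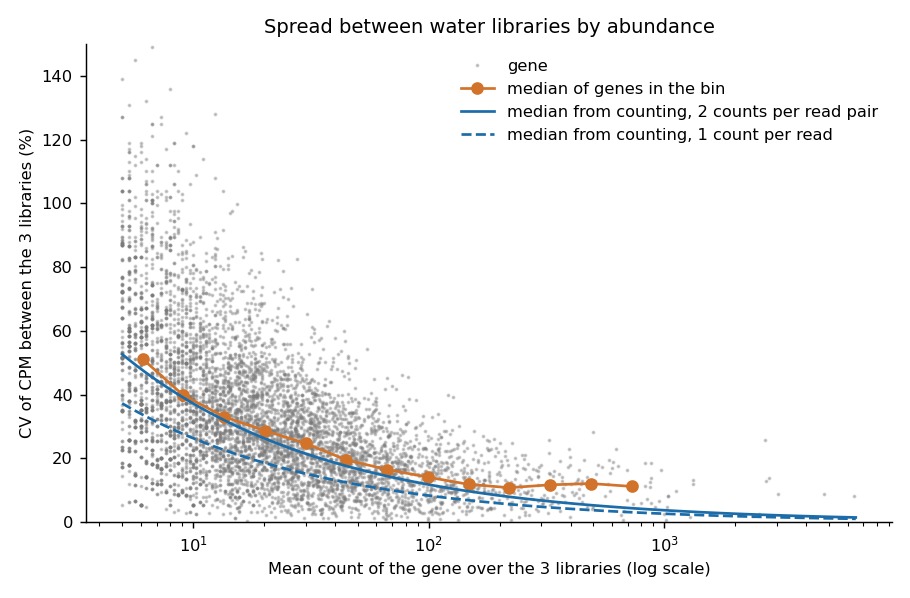
CV of CPM between the 3 water libraries in percent against mean count (log scale), with 1 point per gene for 6414 genes averaging 5 counts or more (1 gene above 150% is off the axis). Orange points are bin medians, the blue lines are the median CV that counting alone gives with 2 counts per read pair (solid) or 1 per read (dashed), and the bin medians level off near 11% as the lines go on falling.

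Few genes of moderate or high abundance differed widely. The highest library was at least 3 times the lowest for 63 of 2838 genes (2.22%), all with a mean count under 100. Leaving out library 1, 2 or 3 gave 23, 24 and 29 genes. The 8 with the widest ratio were Lman2, Zc3h3, Acp6, Kdm1b, Lman1, Rsrp1, Pes1 and Shroom3. Lman2, a cargo receptor of the secretory pathway, had 27, 43 and 6 counts, a 6.76-fold range. Lman1, another such receptor, had 8, 17 and 44 counts, so the pair were low in different libraries. Kdm1b, a histone demethylase needed to set maternal imprints, had 30, 29 and 6 counts, a 5.27-fold range. Dek overlaps Kdm1b in RefSeq. These 8 were picked as the widest of 2838, which inflates their ratios.

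Among the 200 most abundant genes the widest were Mdm4, Chaf1a, Fbxw16, Gdf9 and Atrx. Mdm4, an inhibitor of p53, had 1347, 2293 and 1582 CPM and a CV of 28.3%. Chaf1a, a subunit of a histone chaperone for newly made DNA, had 634.5, 511.8 and 856.3 CPM. Ubxn6 overlaps Chaf1a in RefSeq, and their transcripts match over 2542 bases, so reads of the pair may not be told apart. Atrx, a chromatin remodeler, had 567.7, 897.3 and 637.8 CPM. Mdm4, Fbxw16 and Atrx were highest in library 2, Chaf1a in library 3 and Gdf9 in library 1, so no library accounted for all 5.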

How the data were processed

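Gene counts of 3 water-injected GV oocyte libraries were used. The authors deposited raw, whole-number counts per gene symbol, 1 column per library. The submitters' processing notes name cutadapt, Trimmomatic, HISAT2, DESeq2 and mm10, without roles. The counting tool, annotation, strand use and handling of molecular identifiers are not given in the sources used here. CPM was computed on library totals without ERCC rows (Python 3.11.15, pandas 2.3.3, scipy 1.17.1). With 269491 to 300917 counts per library, 1 count is 3.32 to 3.71 CPM. Amplified copies and the mates of a pair do not stand for separate molecules, so intervals and limits cover counting error only. Lengths and positions came from GENCODE M21, biotypes, overlaps and promoters from RefSeq GRCm38.p6. The extra CV is the value at which the median ratio of squared CV to its counting part plus the squared extra CV equals that of a chi-square over its degrees of freedom. This form was adopted after the data were seen, because a simpler one returned values below 0 on simulated counts without extra spread, on which the form used was then tested. Alternatives were TMM (edgeR 4.0.16), DESeq2 1.42.0 size factors, other filters, leaving out each library, and the median transcript length. There is 1 group and no contrast, so nothing was tested between groups. Named genes were the markers, the 20 highest by CPM and per length, the top 3 of each list with its members at 0 where they were at most 5, the 8 genes with the widest ratio between libraries, and the 5 widest and 5 most even of the top 200. Other genes, the promoters, the search for near-identical copies and neighbours, and the counts of the extreme library per list were chosen after values were seen. The members and lists were chosen with earlier results of these data known.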

Additional observations from a re-analysis of the deposited data

How the results depend on the processing

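The levels of the 4 markers in CPM stayed within 1 SD of the 3 libraries in all 24 results run, 6 alternatives for each marker. The number of genes seen in every library and the number that held 50% of the counts stayed within 1.5 times. Without Rn45s the top 100 genes took 26.7% of the counts in place of 28.2%. The mean Spearman rho of 0.826 became 0.842 with no filter and 0.865 at a mean count of at least 50, and ranged from 0.806 to 0.826 with a library left out. The median log2 difference of 0.316 became 0.688 with no filter and 0.234 at a mean count of at least 50, and ranged from 0.290 to 0.336 with a library left out. The extra CV of 10.3% over the 2838 genes became 18.2% with no filter and 17.5% with each count as a read, and ranged from 7.22% without library 1 to 12.6% without either of the others. As a difference of the median squared CV and its counting part, the form used at first and replaced after the data were seen because it returned too little on simulated counts, it was 6.2%. The 63 genes that differed 3-fold or more became 5534 with no filter, since low genes enter, and 1 at a mean count of at least 50, and ranged from 23 to 29 with a library left out; fewer libraries span a smaller range. With the median transcript length the TPM of Gdf9 was 23300, of Zp3 3270, of Dppa3 5040 and of Bmp15 443, since another length divides the same counts. The cause of the other shifts was not tested. Of 100 list medians under other scaling or without a library, 20 belong to 4 lists whose median stayed at 0. The 5 of the list of early embryo and pluripotency genes counted as moved because its median was 0 in each library, which leaves no spread, and ran from 0.831 to 2.33 CPM. Of the other 75, 4 moved by more than the spread between libraries. A move no larger than that spread, ties included, was counted as none, and ties were included after the data were seen. The median of the Fbxw list was 1210 CPM with Fbxw27 and that of the oogenesin list 456 without C86187, both added after the data were seen. No paired analysis was possible because the results come from 1 group and from no test. Depth limits the description of genes under a mean count of 20.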
